A study of Rattus norvegicus with 28 samples.

Results

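The matrix metalloproteases (Mmp), the ADAM and ADAMTS metalloproteases (Adam, Adamts), the ADAMTS-like proteins (Adamtsl) and the tissue inhibitors of metalloproteases (Timp) were followed in cultured rat microglia and astrocytes. The genes were taken by a rule on symbols, which was set with earlier results of these data known. It took every Mmp, Adam, Adamts, Adamtsl or Timp gene with a numbered symbol in any count table, except Adam and Adamts symbols with a letter after the number. This gave 72 of 28459 symbols: 23 Mmp, 21 Adam, 19 Adamts, 5 Adamtsl and 4 Timp genes. Metalloproteases of these families carry a zinc ion in the active site and are made as inactive precursors. Secreted and membrane-bound MMPs cut collagens, laminins and other matrix proteins and can activate one another, ADAMs release the outer parts of membrane proteins such as TNF and growth factor precursors, and ADAMTS proteases cut proteoglycans such as aggrecan, brevican and versican. TIMPs bind and block these enzymes, and in the brain MMP3 and MMP9 are known for cutting the basal lamina of blood vessels.

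The cells were primary cultures from cortices of Wistar rats at postnatal day 1, held for 10 days in flasks with 10% fetal calf serum before the microglia were shaken off and selected with magnetic beads against CD11b/c. The groups were microglia with recombinant HERV-W envelope protein (ENV, from a human endogenous retrovirus, 1 µg/ml, 3 libraries) against microglia with its buffer (3 libraries), microglia with lipopolysaccharide (LPS, 100 ng/ml, 3 libraries) against microglia with H2O (3 libraries), and the same 4 treatments of astrocytes with 4 libraries each. Stimulation began 1 day after isolation for microglia and 3 days after it for astrocytes. How long it lasted is not given in the labels used here. Nothing in the labels says that replicates came from separate litters or cultures, so a p-value here reflects only how these libraries spread, and that spread may be technical.

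Library totals were 26513999 to 42724111 counts in microglia and 23742228 to 35326938 counts in astrocytes, so 3 counts, the most that a count of 0 allows, came to 0.0702 to 0.126 counts per 1000000 (CPM). Such limits cover counting error only. The summed level of 14 microglia and macrophage markers was 6755 to 14113 CPM in microglial libraries, and that of 13 astrocyte markers was 2618 to 11662 CPM in astrocyte libraries, with 24.7 to 295 CPM of the astrocyte list in microglia and 122 to 913 CPM of the microglial list in astrocytes. Astrocyte libraries also held 1920 to 11231 CPM of 15 fibroblast and mural cell markers. Among microglia, H2O replicate 3 lay closer to the 3 buffer libraries (root mean square log2 difference 0.564 to 0.700) than to H2O replicates 1 and 2 (1.17 and 1.16), and LPS replicate 3 lay 1.28 and 1.20 from LPS replicates 1 and 2. In astrocytes, buffer and H2O replicates of the same number (0.194 for number 3 and 0.189 for number 4) and ENV and LPS replicates of the same number (0.266 for number 3 and 0.214 for number 4) lay closer to each other than any 2 libraries of 1 group (0.327 or more), although they differed by more than counting noise. The ENV and LPS sets of astrocytes may therefore share cultures. Each set was tested alone against its own vehicle, and the main fit of the difference between the sets has no block for shared cultures.

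Mmp3 and Mmp13, the members called higher in every treated group, lie in 1 run of 10 neighbouring Mmp genes on chromosome 8 in the RefSeq annotation of the rat assembly GRCr8, in the order Mmp13, Mmp12, Mmp1b, Mmp3, Mmp1, Mmp10, Mmp8, Mmp27, Mmp20 and Mmp7. The 100 bases before the annotated start are shown for the 3 genes of the run that reached 1 CPM in any group and for Mmp10, a neighbour that carries the same letters and stayed at or below 0.154 CPM on average in every group. Capitals mark the AP-1 motif TGANTCA, searched on both strands, and TATAAA, searched on the coding strand. All 4 lie on the plus strand, at chr8:12925181-12925280 (Mmp3), chr8:12782729-12782828 (Mmp13), chr8:12866552-12866651 (Mmp12) and chr8:12974607-12974706 (Mmp10) of GRCr8, which is a later assembly than the mRatBN7.2 named in the submitters' processing notes.
Mmp3: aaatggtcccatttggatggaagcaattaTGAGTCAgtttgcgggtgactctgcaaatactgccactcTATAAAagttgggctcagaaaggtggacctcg
Mmp13: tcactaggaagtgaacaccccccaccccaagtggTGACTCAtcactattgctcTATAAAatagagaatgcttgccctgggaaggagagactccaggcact
Mmp12: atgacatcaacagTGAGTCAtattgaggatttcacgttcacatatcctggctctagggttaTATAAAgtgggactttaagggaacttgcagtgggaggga
Mmp10: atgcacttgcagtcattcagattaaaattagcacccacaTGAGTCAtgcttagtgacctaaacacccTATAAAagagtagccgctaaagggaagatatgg

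In the RefSeq promoters, which run from 250 bases before to 50 after the start, 7 of the 10 genes of this run held both motifs (Mmp13, Mmp12, Mmp3, Mmp1, Mmp10, Mmp20 and Mmp7) and 3 held neither (Mmp1b, Mmp8 and Mmp27). Both motifs together occurred in 0.98% of all 27457 promoters. Of the 7 genes with both, 4 stayed under 1 CPM in every group, with Mmp1 at 0 counts in all 28 libraries. Among the 51 members with a promoter in the table, 9 held the AP-1 motif (17.6%, against 7.33% of all promoters) and 13 held TATAAA (25.5%, against 9.08%). Of the 9 with AP-1, 7 were the genes of the run named above, and outside the run only Adam19 and Adam24 held it. The same 7 genes were among the 13 with TATAAA, so these shares do not describe the members outside the run. The NF-kB consensus was found in 3 of the 51 (5.88%, against 4.16%), the interferon-stimulated response element in 1 (1.96%, against 3.77%) and the cyclic AMP response element TGACGTCA in 0 (against 1.91%). A match describes letters only and says nothing about binding.

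Of the 72 members, 52 reached a mean of 1 CPM and 34 a mean of 10 CPM in at least 1 of the 8 groups. The microglial table listed 71 of them, all but Timp2, and there were 61 in each astrocyte table. There were 7 members at 0 counts in every library: Adam5, Adam7, Adam18, Adam24, Adam34, Mmp1 and Mmp1b. The summed Mmp level was 460 to 1038 CPM in ENV microglia against 129 to 151 CPM in buffer microglia, and 365 to 1432 CPM in LPS microglia against 144 to 283 CPM in H2O microglia, with no overlap in either pair. Mmp9 was the most abundant gene of the sums in both treated groups (267 to 805 CPM with ENV and 226 to 1146 CPM with LPS), and its own change with LPS was not called. In astrocytes the summed Mmp level overlapped, at 561 to 859 CPM with ENV against 620 to 685 CPM with buffer and at 499 to 697 CPM with LPS against 555 to 678 CPM with H2O. The summed Timp level in astrocytes did not overlap in either pair, at 738 to 954 CPM with ENV against 1196 to 1665 CPM with buffer and at 708 to 981 CPM with LPS against 1073 to 1716 CPM with H2O.

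Each treated group was tested against its own vehicle by the edgeR quasi-likelihood test. Calls are adjusted p-values under 0.05, with the adjustment made over all genes tested. Of 41 members tested in ENV microglia, 16 were called (39.02%, against 30.9% of all genes): 11 were higher (16.2% of all genes were) and 5 lower (14.7% of all genes). Of 37 tested in LPS microglia, 10 were called (27.03%, against 29.8% of all genes): 7 were higher (16% of all genes) and 3 lower (13.8% of all genes). In ENV astrocytes 19 of 48 were called (39.6%, against 17.9% of all genes): 8 were higher (9.52% of all genes) and 11 lower (8.35% of all genes). In LPS astrocytes 7 of 48 were called (14.6%, against 5.34% of all genes): 3 were higher (2.64% of all genes) and 4 lower (2.69% of all genes). The share in LPS microglia was near that of all genes. The shares in ENV microglia and in both astrocyte comparisons were above those of all genes, differences that were not tested. Where the text says that CPM groups did not overlap, the same held for 53.9% of all genes in ENV microglia, 55.4% in LPS microglia, 22.8% in ENV astrocytes and 14.9% in LPS astrocytes. The median log2 change of the tested members was 0.08 with ENV and 0.37 with LPS in microglia (all genes -0.03 and -0.02), and -0.14 with ENV and -0.09 with LPS in astrocytes (all genes 0.02 and 0.03). In all, 29 of the 51 members tested in at least 1 of the 4 comparisons were called, 2 of them (Mmp3 and Mmp13) higher in all 4, none lower in all 4, and 2 (Adam15 and Adamtsl4) higher in 1 comparison and lower in another.

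The counts of calls moved with single libraries. With ENV in microglia, the members called lower were 2 without ENV replicate 1, buffer replicate 1 or buffer replicate 2 and 3 without ENV replicate 3. With LPS in microglia, those called higher were 4 without H2O replicate 1 or 3 and 3 without H2O replicate 2, and those called lower were 1 without H2O replicate 1 or 3. With ENV in astrocytes, those called higher were 5 without ENV replicate 3, and those called lower were 6 without ENV replicate 1 and 7 without ENV replicate 3, buffer replicate 1 or buffer replicate 3. With LPS in astrocytes, those called lower were 1 without LPS replicate 1, H2O replicate 2 or H2O replicate 3, and 2 without LPS replicate 3 or H2O replicate 1. With the replicate number as a block, LPS in microglia gave 6 members called lower, and LPS in astrocytes gave 5 called higher and 13 called lower. Calls that the block added and that are not given with their gene were, in LPS microglia, Adamtsl5 (log2 change -2.06, adjusted p = 0.00682). In LPS astrocytes they were Adam15 (-0.28, adjusted p = 0.0364), Adamtsl4 (-1.07, adjusted p = 0.00642), Adamtsl5 (-0.62, adjusted p = 0.0145), Mmp15 (-0.76, adjusted p = 0.0338) and Mmp24 (-0.54, adjusted p = 0.0387).

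**Figure D1:**
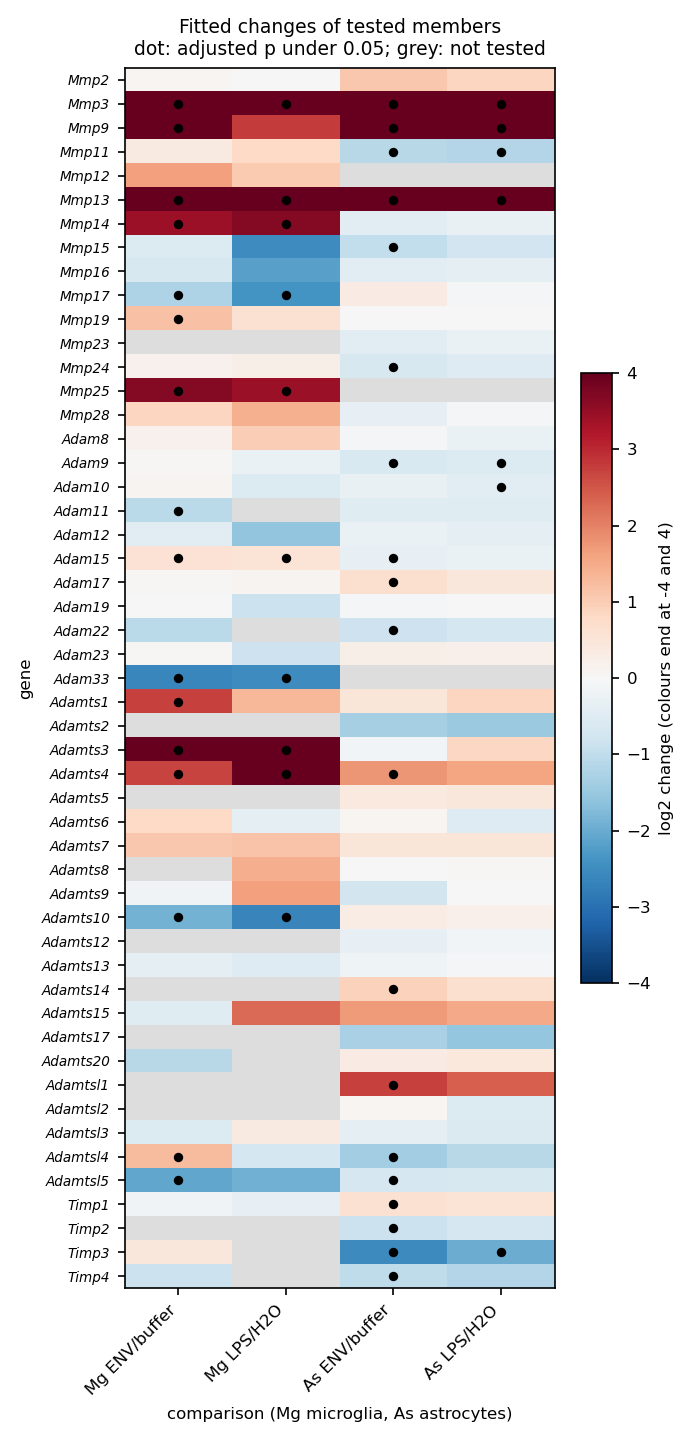
Fitted log2 change (colour, red higher and blue lower in the treated group) of the 51 members tested in at least 1 of the 4 treated comparisons, ordered by family, with a dot where the adjusted p was under 0.05 and grey where a gene was not tested. Low counts kept grey genes out of the test, except Timp2 in microglia, which had no row there. Mmp3 and Mmp13 carry a dot in all 4 columns, while the dots on Mmp14, Mmp25, Adamts3 and Adamts10 stand in the microglial columns and those on Timp3 and Mmp11 in the astrocyte columns.

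Mmp3 (stromelysin 1, which cuts many matrix proteins and activates other MMP precursors) was near 0 in every vehicle group and present in every treated library. It had 2.35, 8.03 and 1.22 CPM in ENV microglia, against 0, 0 and 0.0337 CPM in buffer microglia. LPS microglia had 4.74, 3.499 and 5.07 CPM of Mmp3, against 0, 0.0484 and 0.0936 CPM in H2O microglia. ENV astrocytes had 25.1, 11.04, 18.3 and 11.8 CPM, against 0.0344, 0.0708, 0 and 0.113 CPM in buffer astrocytes. No treated library overlapped its vehicle group, and LPS astrocytes stood likewise apart, with 7.03, 1.41, 13.9 and 8.97 CPM of Mmp3 against 0.105, 0, 0 and 0 CPM in H2O astrocytes. The vehicle counts were so few that the change in ENV microglia is given as a ratio of pooled counts, 333-fold (348 counts against 1, exact 95% counting interval 59.3 to 13177, adjusted p = 0.00351). In LPS astrocytes the ratio was 281-fold (840 counts against 3, interval 95.7 to 1364, adjusted p = 0.00867). The fitted log2 change was 6.75 ± 0.83 (SE, adjusted p = 0.00414) in LPS microglia and 8.06 ± 0.55 (adjusted p = 0.000348) in ENV astrocytes. The 4 Mmp3 calls held under every alternative run.

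Mmp13 (collagenase 3, which cuts fibrillar collagen) was likewise near 0 in every vehicle group. ENV microglia had 2.49, 5.61 and 4.85 CPM of Mmp13, against 0, 0.0350 and 0.0337 CPM in buffer microglia. The ratio was 185 (388 counts against 2, interval 51.0 to 1537, adjusted p = 0.000382). LPS microglia had 5.62, 1.93 and 110.1 CPM, against 0.126, 0 and 0.0468 CPM in H2O microglia. LPS replicate 3 of the microglia thus held most of that signal, and the fitted log2 change of 9.65 ± 2.20 (adjusted p = 0.0222) was 6.30 (adjusted p = 0.0107) without it. The call was lost without H2O replicate 1, 2 or 3 (adjusted p up to 0.0888). ENV astrocytes had 7.58, 0.503, 2.34 and 1.06 CPM of Mmp13 against 0, 0.0708, 0 and 0 CPM in buffer astrocytes. Here the ratio was 164 (333 counts against 2, interval 45.04 to 1360, adjusted p = 0.00881). LPS astrocytes had 0.969, 0.609, 1.94 and 1.02 CPM of Mmp13 against 0, 0, 0.0397 and 0.0414 CPM in H2O astrocytes. For LPS the ratio was 61.2 (122 counts against 2, interval 16.6 to 511, adjusted p = 0.00858). Every treated library lay above its vehicle group.

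Mmp12 (macrophage elastase, which cuts elastin) was already present in vehicle microglia and nearly absent from vehicle astrocytes. ENV microglia had 3.00, 11.4 and 2.18 CPM, against 1.06, 4.24 and 0.909 CPM in buffer microglia, and LPS microglia had 16.3, 8.09 and 2.44 CPM, against 11.1, 4.48 and 0.468 CPM in H2O microglia. The groups overlapped, but each treated library lay above the vehicle library of the same number. The log2 change was 1.62 ± 0.80 with ENV (adjusted p = 0.164) and 1.05 ± 1.11 with LPS (adjusted p = 0.506), and with the replicate number as a block the ENV adjusted p was 0.00282 and the LPS adjusted p 0.054. In astrocytes Mmp12 was too low to enter the test, with 2.30, 0.0943, 6.47 and 5.54 CPM in ENV astrocytes against 0, 0, 0 and 0.0849 CPM in buffer astrocytes. LPS astrocytes had 0.126, 0.152, 4.19 and 6.57 CPM of Mmp12 against 0, 0, 0 and 0.0414 CPM in H2O astrocytes. The pooled ratios for Mmp12 were 141-fold with ENV (429 counts against 3, interval 47.9 to 686) and 293.8-fold with LPS (293 counts against 1, interval 52.3 to 11642). Without the filter on low counts the edgeR adjusted p was 0.0158 with ENV and 0.0561 with LPS. DESeq2 called Mmp12 in astrocytes with both agents. The 14 microglial markers summed to 401, 127, 330 and 483 CPM in ENV astrocytes against 913, 206, 577 and 866 CPM in buffer astrocytes. With LPS they summed to 160, 122, 323 and 447 CPM against 356, 306, 600 and 881 CPM with H2O. The part of the remaining microglia in the Mmp12 signal of astrocyte cultures was not tested. The other members of the run stayed low: Mmp10 had 12 counts over the 4 ENV astrocyte libraries against 0 in buffer astrocytes, which is at least 3.94-fold higher against a floor of 3 pooled counts.

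**Figure D2:**
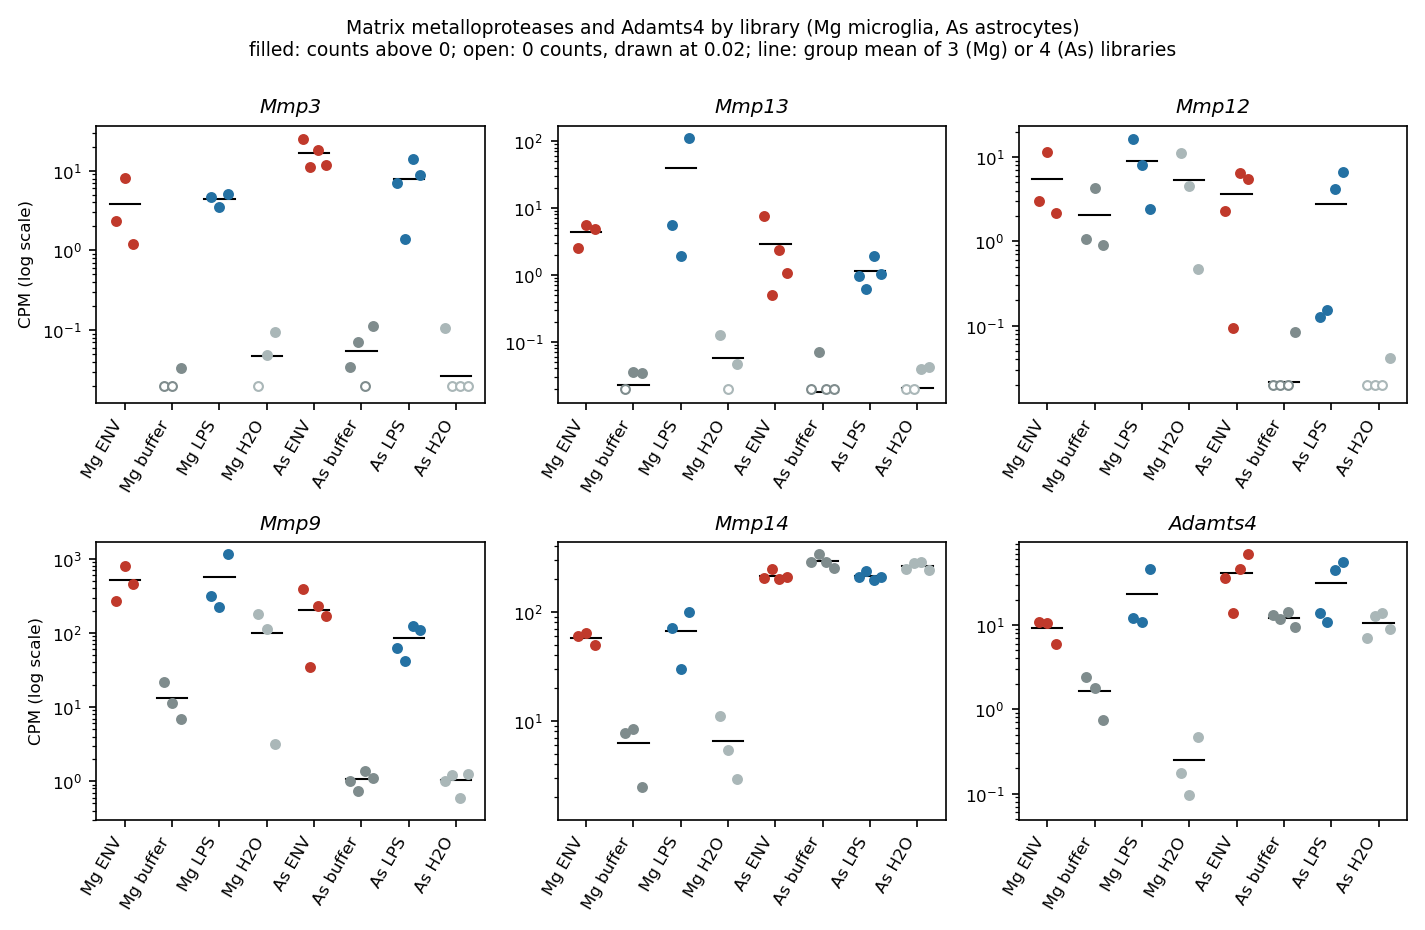
CPM on a log axis in every library for 6 members, with microglia (Mg, 3 libraries per group) left and astrocytes (As, 4 per group) right, each treated group left of its vehicle. Filled points are counts above 0, open points are 0 counts drawn at 0.02, and the line is the group mean. Mmp3 and Mmp13 leave the floor in every treated group, Mmp9 starts near 1 CPM in vehicle astrocytes, and Mmp14 separates treated from vehicle libraries in microglia.

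Of the gelatinases, which cut denatured collagen and basal lamina collagen, Mmp9 responded and Mmp2 did not pass the test. ENV microglia had 267, 805 and 464 CPM of Mmp9, against 22.0, 11.2 and 6.97 CPM in buffer microglia. Mmp9 thus changed by 5.44 ± 0.59 on the log2 scale (adjusted p = 0.00101). ENV astrocytes had 387, 34.8, 232 and 169 CPM of Mmp9 against 0.999, 0.743, 1.37 and 1.10 CPM in buffer astrocytes. The change was 7.62 ± 0.78 on the log2 scale (adjusted p = 0.000892). LPS astrocytes had 63.6, 42.1, 125 and 109 CPM against 1.02, 1.23, 0.596 and 1.24 CPM in H2O astrocytes. There the log2 change was 6.40 ± 0.46 (adjusted p = 0.00253). These 3 pairs of groups did not overlap. LPS microglia had 316, 226 and 1146 CPM of Mmp9 against 181, 112 and 3.14 CPM in H2O microglia, so that H2O replicates 1 and 2 lay far above H2O replicate 3 and far above all buffer libraries. The groups did not overlap there either, but the log2 change of 2.80 ± 1.34 was not called (adjusted p = 0.16). From replicates 1 and 2 alone it was 1.18 (adjusted p = 0.0388). The 14 microglial markers, all of them detected, summed to 127 to 483 CPM in ENV astrocytes against 206 to 913 CPM in buffer astrocytes. With LPS they summed to 122 to 447 CPM against 306 to 881 CPM with H2O. The marker sums overlapped in both pairs. By library they were 401, 127, 330 and 483 CPM in ENV astrocytes and 160, 122, 323 and 447 CPM in LPS astrocytes. The part of the remaining microglia in the Mmp9 signal of astrocyte cultures was not tested.

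Mmp2 had 27.6, 13.6, 34.1 and 98.9 CPM in ENV astrocytes against 22.2, 9.38, 18.4 and 35.1 CPM in buffer astrocytes, a log2 change of 1.06 ± 0.60 (adjusted p = 0.261, and 0.0324 with the replicate block). LPS astrocytes had 6.99, 6.85, 30.4 and 85.8 CPM of Mmp2 against 9.61, 12.5, 17.6 and 35.1 CPM in H2O astrocytes, lower in numbers 1 and 2 and higher in numbers 3 and 4. The fitted log2 change over all 4 was 0.85 ± 0.83 (adjusted p = 0.632). In microglia Mmp2 stayed at 1.88 to 2.48 CPM with ENV against 2.00 to 3.01 CPM with buffer, and at 1.23 to 2.53 CPM with LPS against 1.48 to 2.88 CPM with H2O, with log2 changes of 0.08 ± 0.26 (adjusted p = 0.845) and -0.01 ± 0.44 (adjusted p = 0.989).

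Among membrane-bound MMPs, Mmp14 (MT1-MMP, which activates the MMP2 precursor and cuts collagen at the cell surface) rose in microglia. ENV microglia had 60.2, 63.3 and 49.0 CPM of Mmp14 against 7.69, 8.47 and 2.46 CPM in buffer microglia. Its log2 change was 3.43 ± 0.42 (adjusted p = 0.00163). LPS microglia had 70.5, 29.8 and 99.6 CPM against 11.2, 5.38 and 2.90 CPM in H2O microglia. With LPS the log2 change was 3.66 ± 0.68 (adjusted p = 0.0126, and 0.0614 without H2O replicate 2). Neither pair overlapped. In astrocytes Mmp14 was 199 to 244 CPM with ENV against 254 to 338 CPM with buffer, and 194 to 238 CPM with LPS against 242 to 287 CPM with H2O. The treated astrocytes lay below their vehicles without overlap, but the log2 changes of -0.43 ± 0.13 (adjusted p = 0.0501, and 0.0126 with the replicate block) and -0.30 ± 0.11 (adjusted p = 0.173) were not called.

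Mmp25 (MT6-MMP, best known from neutrophils) was low and rose in microglia, with 3.75, 0.490 and 1.02 CPM with ENV against 0.339, 0.0700 and 0.0674 CPM with buffer (log2 change 3.68 ± 1.01, adjusted p = 0.0316). With LPS it had 5.22, 2.04 and 0.919 CPM against 0.656, 0.169 and 0.0936 CPM with H2O (log2 change 3.46 ± 1.00, adjusted p = 0.0453). Neither pair overlapped, but the call was lost without ENV replicate 1, buffer replicate 2 or buffer replicate 3 (adjusted p up to 0.101) and without any H2O library, LPS replicate 1 or LPS replicate 2 (adjusted p up to 0.156). The 10 markers of granulocytes and blood monocytes summed to 191 to 370 CPM in ENV microglia against 64.3 to 115 CPM in buffer microglia and to 85.2 to 231 CPM in LPS microglia against 93.7 to 107 CPM in H2O microglia. Of these 10 markers, 4 were at 0 counts in ENV microglia (Mpo, Elane, Ccr2 and Retnlg) against 5 in buffer microglia (S100a9, Mpo, Elane, Ly6c and Retnlg), and 4 in LPS microglia (Mpo, Elane, Ccr2 and Retnlg) against 3 in H2O microglia (S100a9, Elane and Retnlg). Their part in the Mmp25 result was not tested. Mmp17 (MT4-MMP) fell in microglia, to 0.505, 1.11 and 1.06 CPM with ENV against 2.41, 2.21 and 2.63 CPM with buffer (log2 change -1.24 ± 0.33, adjusted p = 0.0292). It also fell to 0.228, 0.157 and 0.315 CPM with LPS against 0.984, 0.799 and 2.83 CPM with H2O (log2 change -2.38 ± 0.63, adjusted p = 0.0346). These groups did not overlap, and the Mmp17 calls were lost without ENV replicate 1, 2 or 3 or buffer replicate 1 or 2 (adjusted p up to 0.0797) and without any H2O library, LPS replicate 1 or LPS replicate 2 (adjusted p up to 0.133).

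Mmp15 and Mmp16 (MT2-MMP and MT3-MMP) showed how far 1 library reached in the LPS set of microglia. Mmp15 had 0.0760, 0.131 and 7.90 CPM in LPS microglia against 0.706, 0.847 and 57.6 CPM in H2O microglia, where replicate 3 of each group was the highest by far. Mmp16 had 0.0507, 0.0522 and 2.21 CPM in LPS microglia against 0.303, 0.145 and 12.9 CPM in H2O microglia. Neither was called, and with the replicate number as a block both were (log2 change -2.55, adjusted p = 0.00474 for Mmp15, and -2.03, adjusted p = 0.0218 for Mmp16). Without H2O replicate 3 the direction turned, to 2.07 for Mmp15 (adjusted p = 0.487) and 2.04 for Mmp16 (adjusted p = 0.453). Without LPS replicate 3 the changes were -7.19 (adjusted p = 0.107) and -6.01 (adjusted p = 0.123). Buffer microglia had 40.6 to 44.1 CPM of Mmp15, nearer to H2O replicate 3 than to H2O replicates 1 and 2. The 11 oligodendrocyte-lineage markers moved alongside, at 4.84 to 25.8 CPM in LPS microglia against 15.7 to 131 CPM in H2O microglia, and their part was not tested. In astrocytes Mmp15 fell with ENV, with 19.1, 21.5, 34.3 and 24.5 CPM against 48.6, 34.8, 59.3 and 58.9 CPM with buffer, without overlap (log2 change -0.996 ± 0.22, adjusted p = 0.017, and 0.051 without buffer replicate 3).

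Of the remaining MMPs, Mmp11 (stromelysin 3) fell in astrocytes with both agents. ENV astrocytes had 31.7, 54.2, 28.9 and 30.4 CPM of Mmp11 against 70.2, 71.0, 80.9 and 94.3 CPM in buffer astrocytes. Mmp11 changed by -1.11 ± 0.21 on the log2 scale (adjusted p = 0.00935). LPS astrocytes had 49.1, 46.9, 31.3 and 29.4 CPM against 94.6, 86.2, 79.5 and 95.3 CPM in H2O astrocytes. Here the log2 change was -1.17 ± 0.17 (adjusted p = 0.011). The groups did not overlap in either pair. Mmp19 rose in ENV microglia, to 88.3 ± 7.4 CPM against 44.8 ± 3.6 CPM in buffer microglia (SD, n = 3 each; log2 change 1.18, adjusted p = 0.0011), and was not called in the other 3 comparisons. Mmp24 fell in ENV astrocytes (log2 change -0.65, adjusted p = 0.0419), and this call was lost without ENV replicate 1, 2 or 3 or any buffer library (adjusted p up to 0.102).

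Among the ADAMs, the sheddases Adam17 and Adam10 had fitted log2 changes between -0.54 and 0.63. Adam17, the enzyme that releases TNF from the cell surface, had 192, 197 and 216 CPM in ENV microglia against 248, 253 and 173 CPM in buffer microglia, with overlap and a log2 change of 0.05 ± 0.15 (adjusted p = 0.831). In LPS microglia it had 201, 221 and 192 CPM against 245, 226 and 233 CPM in H2O microglia, and the log2 change after scaling was 0.11 ± 0.12 (adjusted p = 0.521). Here CPM and fitted change differ in sign because scaling by TMM moved log2 changes in microglia up by a median of 0.20 with ENV and 0.31 with LPS relative to the CPM ratio; in astrocytes it moved them by 0.01 and 0.02. In astrocytes Adam17 rose with ENV, with 159.8, 105, 139 and 152 CPM against 93.0, 75.8, 86.4 and 108 CPM with buffer. Only ENV replicate 2 lay within the buffer range, and the log2 change was 0.63 ± 0.14 (adjusted p = 0.019), lost without ENV replicate 1, buffer replicate 2 or buffer replicate 3 (adjusted p up to 0.0648). LPS astrocytes had 120.2, 101, 125 and 146 CPM of Adam17 against 95.1, 82.6, 86.9 and 97.2 CPM in H2O astrocytes, without overlap, at a log2 change of 0.47 ± 0.13 (adjusted p = 0.0799, and 0.0261 with the replicate block).

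Adam10, which sheds Notch receptors and the amyloid precursor protein, had 158, 159.7, 136 and 132 CPM in LPS astrocytes against 199, 196, 191 and 201 CPM in H2O astrocytes. It fell without overlap (log2 change -0.41 ± 0.09, adjusted p = 0.0376), and the call was lost without LPS replicate 1, 3 or 4 or any H2O library (adjusted p up to 0.107). ENV astrocytes had 143, 188, 147 and 131 CPM of Adam10 against 198, 191, 177 and 197 CPM in buffer astrocytes (log2 change -0.31 ± 0.12, adjusted p = 0.107, and 0.0471 with the replicate block). In microglia Adam10 had 105 to 137 CPM with ENV against 87.4 to 161 CPM with buffer (log2 change 0.11 ± 0.21, adjusted p = 0.73), and 85.7 to 113 CPM with LPS against 155 to 213 CPM with H2O (log2 change -0.54 ± 0.16, adjusted p = 0.0508). Adam9, another sheddase, fell in astrocytes with both agents, to 78.2 ± 11 CPM with ENV against 121 ± 6.9 CPM with buffer (SD, n = 4 each; log2 change -0.61, adjusted p = 0.00748). With LPS it fell to 76.8 ± 9.9 CPM against 114 ± 9.2 CPM with H2O (log2 change -0.54, adjusted p = 0.0401, and up to 0.13 without LPS replicate 1, 2 or 3 or any H2O library).

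Adam15, a membrane protein that also binds integrins, moved in opposite directions in the 2 cell types. ENV microglia had 356, 436 and 429 CPM against 319, 291 and 329.7 CPM in buffer microglia, without overlap (log2 change 0.57 ± 0.12, adjusted p = 0.0135). ENV astrocytes had 167, 156, 168 and 191 CPM against 223, 203, 225 and 209.7 CPM in buffer astrocytes, also without overlap (log2 change -0.32 ± 0.08, adjusted p = 0.0323). In LPS microglia Adam15 had 352, 452 and 454 CPM against 383, 321 and 367 CPM in H2O microglia, with overlap, a log2 change of 0.54 ± 0.15 (adjusted p = 0.0426, and 0.0827 with the replicate block). The calls on Adam15 were lost when any of several libraries was left out: without ENV replicate 2, ENV replicate 3 or buffer replicate 2 the microglial ENV call was lost (adjusted p up to 0.0558), without LPS replicate 2 or 3 or any H2O library the LPS call (adjusted p up to 0.143), and without ENV replicate 1, 2 or 3 or buffer replicate 1, 2 or 3 the astrocyte call (adjusted p up to 0.0916). Adam33 fell in microglia with both agents, to 0.180, 0.457 and 0.0660 CPM with ENV against 1.92, 2.35 and 0.741 CPM with buffer (log2 change -2.59 ± 0.68, adjusted p = 0.0273). With LPS it fell to 0.355, 0.261 and 0.158 CPM against 2.67, 0.823 and 2.11 CPM with H2O (log2 change -2.53 ± 0.60, adjusted p = 0.0245). Its groups did not overlap, and the calls were lost without ENV replicate 1 or 3 or buffer replicate 1 or 2 (adjusted p up to 0.0924) and, for LPS, without LPS replicate 1 or 2 or either of H2O replicates 1 and 3 (adjusted p up to 0.114).

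Adam11 and Adam22, brain ADAMs that lack protease activity, were each called lower in 1 comparison. Adam11 had 0.974, 1.60 and 2.37 CPM in ENV microglia against 3.70, 4.03 and 4.24 CPM in buffer microglia (log2 change -1.08 ± 0.33, adjusted p = 0.0437), and this call did not hold without ENV replicate 1 or 2 or any buffer library (adjusted p up to 0.128). Markers of other cell types were lower in the same ENV libraries. The 11 oligodendrocyte-lineage markers summed to 56.7 to 118 CPM in ENV microglia (Mog and Mobp at 0) against 225 to 249 CPM in buffer microglia (none at 0), and the 13 astrocyte markers to 117 to 237 CPM in ENV microglia against 240.2 to 295 CPM in buffer microglia, with Gjb6 at 0 in both groups. The 15 fibroblast and mural cell markers summed to 35.1 to 65.9 CPM in ENV microglia (Rgs5 and Fap at 0) against 70.3 to 140 CPM in buffer microglia (Lum, Rgs5 and Fap at 0). With LPS the astrocyte markers were at 24.7 to 45.6 CPM against 62.9 to 285 CPM with H2O, with Gjb6 and Ntsr2 at 0 in both groups. The part of these cells in the microglial falls of Adam11, Adam33, Mmp17, Adamts10, Adamtsl5 and Timp4 was not tested. Adam22 was 2.50 to 3.08 CPM in ENV astrocytes against 3.68 to 6.13 CPM in buffer astrocytes (log2 change -0.82, adjusted p = 0.0276, and up to 0.0784 without ENV replicate 1, 3 or 4 or buffer replicate 1, 2 or 4). The 10 neuronal markers, none of them at 0, summed to 272 to 454 CPM in ENV astrocytes against 555 to 840.2 CPM in buffer astrocytes, and their part in the Adam22 result was not tested. Adam8, which myeloid cells are known to raise on activation, stayed at 0.330 to 0.794 CPM in ENV microglia against 0.490 to 0.640 CPM in buffer microglia and at 0.548 to 1.37 CPM in LPS microglia against 0.445 to 0.580 CPM in H2O microglia (log2 changes 0.19 ± 0.41 and 0.99 ± 0.51, adjusted p = 0.759 and 0.185). In astrocytes Adam8 had log2 changes of -0.08 ± 0.31 with ENV and -0.27 ± 0.33 with LPS (adjusted p = 0.898 and 0.713).

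Of the ADAMTS proteases that cut aggrecan and other lecticans, Adamts4 rose in microglia with both agents. ENV microglia had 10.9, 10.61 and 6.003 CPM of Adamts4 against 2.41, 1.79 and 0.741 CPM in buffer microglia. Its log2 change was 2.69 ± 0.45 (adjusted p = 0.00549). LPS microglia had 12.1, 10.7 and 46.6 CPM against 0.177, 0.0969 and 0.468 CPM in H2O microglia. With LPS the log2 change was 6.83 ± 0.92 (adjusted p = 0.00541), which was 5.83 (adjusted p = 0.00292) without LPS replicate 3. Both pairs stood apart without overlap. ENV astrocytes had 35.5, 13.9, 46.5 and 68.7 CPM of Adamts4 against 13.2, 11.7, 14.2 and 9.40 CPM in buffer astrocytes, with ENV replicate 2 inside the buffer range (log2 change 1.77 ± 0.42, adjusted p = 0.0237, and up to 0.0628 without ENV replicate 3 or any buffer library). LPS astrocytes had 14.0, 10.8, 45.3 and 55.5 CPM against 7.05, 12.9, 13.7 and 9.02 CPM in H2O astrocytes, with LPS replicate 2 inside the H2O range (log2 change 1.59 ± 0.56, adjusted p = 0.151).

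Adamts1 rose in ENV microglia, with 4.51, 5.19 and 5.77 CPM against 1.02, 0.945 and 0.707 CPM with buffer and no overlap (log2 change 2.73 ± 0.24, adjusted p = 0.000478, and 0.149 where all 4 microglial groups shared 1 estimate of the spread). In LPS microglia it had 0.127, 0.183 and 5.67 CPM against 0.278, 0.436 and 2.29 CPM with H2O, where only replicate 3 moved up, and the log2 change was 1.32 ± 1.55 (adjusted p = 0.55). In astrocytes the Adamts1 groups overlapped, at 24.1 to 47.6 CPM with ENV against 17.2 to 62.1 CPM with buffer (log2 change 0.47 ± 0.44, adjusted p = 0.503). With LPS they were at 23.8 to 105 CPM against 18.8 to 57.6 CPM with H2O (log2 change 0.87 ± 0.48, adjusted p = 0.352). Without buffer replicate 4, the highest, the ENV change was 1.12 (adjusted p = 0.0173). Adamts3, which cleaves procollagen and the VEGFC precursor, rose in microglia with both agents, to 2.60, 6.07 and 1.95 CPM with ENV against 0.264, 0.175 and 0.0674 CPM with buffer (log2 change 4.57 ± 0.63, adjusted p = 0.00262). With LPS it rose to 2.15, 2.11 and 5.91 CPM against 0.227, 0.315 and 0.211 CPM with H2O (log2 change 4.04 ± 0.58, adjusted p = 0.00617). No library of Adamts3 overlapped between these groups.

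Adamts10, which is known from connective tissue as a binder of fibrillin, fell in microglia with both agents. It had 4.19, 5.16 and 5.05 CPM with ENV against 18.5, 21.9 and 20.9 CPM with buffer (log2 change -1.89 ± 0.15, adjusted p = 0.00032). With LPS it had 1.95, 1.67 and 1.37 CPM against 8.73, 10.8 and 19.5 CPM with H2O (log2 change -2.64 ± 0.35, adjusted p = 0.00505). The groups did not overlap and the Adamts10 calls held under every alternative run. Among the ADAMTS-like proteins, which resemble ADAMTS but lack the protease domain, Adamtsl5 fell in ENV microglia (4.33, 4.31 and 3.60 CPM against 25.7, 18.6 and 15.6 CPM with buffer, log2 change -2.09 ± 0.23, adjusted p = 0.00112). Adamtsl4 was higher in ENV microglia, at 2.45, 3.17 and 2.01 CPM against 1.09, 1.12 and 1.41 CPM with buffer (log2 change 1.27, adjusted p = 0.0161), and lower in ENV astrocytes, at 15.9, 29.3, 32.1 and 23.8 CPM against 52.2, 74.8, 86.7 and 55.3 CPM with buffer (log2 change -1.40 ± 0.26, adjusted p = 0.00899). None of these groups overlapped, and the microglial Adamtsl4 call was lost without ENV replicate 2 or buffer replicate 1 or 2 (adjusted p up to 0.0662).

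In astrocytes the changes of Adamtsl1 and Adamts14 varied in size between replicates. Adamtsl1 had 74.8, 15.6, 66.8 and 93.5 CPM with ENV against 9.61, 11.3, 9.08 and 8.12 CPM with buffer, without overlap (log2 change 2.72 ± 0.48, adjusted p = 0.00759). With LPS it had 13.1, 7.45, 52.3 and 85.6 CPM against 4.42, 7.52, 11.999 and 7.12 CPM with H2O, high in numbers 3 and 4 only. Adamtsl1 in replicates 3 and 4 alone changed by 3.28 with ENV (adjusted p = 0.00864) and 2.89 with LPS (adjusted p = 0.0301), and in replicates 1 and 2 alone by 2.05 (adjusted p = 0.202) and 0.75 (adjusted p = 0.209). With ENV, replicate 1 (74.8 CPM) lay between replicates 3 and 4, and only replicate 2 was low. Adamts14, a procollagen peptidase, rose with ENV to 16.6, 14.0, 24.3 and 28.1 CPM against 10.61, 13.1, 8.53 and 11.5 CPM with buffer (log2 change 0.93 ± 0.25, adjusted p = 0.0358), and this call did not hold without ENV replicate 3 or 4 or buffer replicate 1, 3 or 4 (adjusted p up to 0.102).

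Adamts5, the other main aggrecanase, was not called over all 4 replicates with ENV (log2 change 0.40 ± 0.39, adjusted p = 0.532) or LPS (0.46 ± 0.55, adjusted p = 0.712). ENV astrocytes had 20.6, 18.9, 55.9 and 50.4 CPM of Adamts5 against 31.002, 33.3, 27.8 and 19.2 CPM in buffer astrocytes, and LPS astrocytes had 13.9, 10.1, 52.7 and 51.0 CPM against 19.3, 21.2, 34.8 and 19.9 CPM in H2O astrocytes. In both sets, numbers 1 and 2 lay below and numbers 3 and 4 above their vehicles. With ENV the log2 change of Adamts5 was -0.77 in replicates 1 and 2 (adjusted p = 0.0556) and 1.24 in replicates 3 and 4 (adjusted p = 0.0498), and with LPS -0.78 (adjusted p = 0.0242) and 0.96 (adjusted p = 0.147). Adamts9 had 41.3, 34.4, 13.4 and 12.2 CPM in ENV astrocytes against 58.3, 44.3, 28.9 and 35.8 CPM in buffer astrocytes (log2 change -0.72 ± 0.43, adjusted p = 0.281, and 0.0192 with the replicate block). LPS astrocytes had 95.4, 113, 15.2 and 13.7 CPM of Adamts9 against 79.3, 80.6, 35.0 and 37.0 CPM in H2O astrocytes, higher in numbers 1 and 2 and lower in numbers 3 and 4 (0.35, adjusted p = 0.0512, and -1.27, adjusted p = 0.0181). The difference between the pairs of numbers was not tested. In microglia Adamts9 had log2 changes of -0.14 ± 0.65 with ENV and 1.65 ± 1.66 with LPS (adjusted p = 0.886 and 0.483), and Adamts5 was too low to be tested.

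Adamts18 was low and nearly lost from treated microglia, though it stayed below the filter of the test. It had 0, 0 and 0.0330 CPM in ENV microglia against 2.87, 1.54 and 0.135 CPM in buffer microglia, a ratio of 130 in favour of buffer (1 count against 124, interval 22.9 to 5164). In LPS microglia it had 0 counts against 38 in H2O microglia and was at least 11.9-fold lower against a floor of 3 pooled counts. In the main fits the remaining members gave no call: 22 were tested in at least 1 of the 4 comparisons and called in none. Among them were Adam12, Adam19, Adam23, Adamts7, Adamts13, Mmp23 and Mmp28. Their log2 changes lay between -2.18 (Mmp16, LPS microglia) and 2.26 (Adamts15, LPS microglia), and their adjusted p-values were 0.0669 (Adamts17, LPS astrocytes, log2 change -1.55) or more. DESeq2, run without a block, called some of these 22. They were Adamts7 in ENV microglia, Adamts15 in LPS microglia and ENV astrocytes, and Adamts17 and Mmp12 in ENV and LPS astrocytes. With the block, some of the 22 were called besides Mmp2, Mmp12, Mmp16 and Adamts9 above. In ENV microglia these were Adamts20 (log2 change -1.13, adjusted p = 0.0293) and Adamts7 (1.07, adjusted p = 0.0487). In ENV astrocytes they were Adamts15 (1.58, adjusted p = 0.0474), Adamts17 (-1.41, adjusted p = 0.0155) and Adamts2 (-1.30, adjusted p = 0.0203), and in LPS astrocytes Adamts17 (-1.54, adjusted p = 0.0233), Adamts2 (-1.70, adjusted p = 0.012) and Adamtsl3 (-0.65, adjusted p = 0.0373). Another 21 members were tested in none, of which Adamts18 alone reached 1 CPM on average in any group.

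Of the inhibitors in astrocytes, Timp3, the matrix-bound TIMP that also blocks ADAM17 and several ADAMTS proteases, fell most. ENV astrocytes had 41.4, 105, 61.6 and 29.1 CPM of Timp3 against 357, 455, 349.7 and 214 CPM in buffer astrocytes. Timp3 changed by -2.54 ± 0.43 on the log2 scale (adjusted p = 0.00623). LPS astrocytes had 64.1, 94.97, 69.9 and 32.8 CPM against 181, 256, 397 and 209 CPM in H2O astrocytes. Here the log2 change was -1.98 ± 0.36 (adjusted p = 0.0217). Every treated library lay below every vehicle library, and the LPS call was lost without LPS replicate 1 or 3 or H2O replicate 2 or 3 (adjusted p up to 0.0618). Timp2, the inhibitor that also serves MMP14 in activating the MMP2 precursor, fell with ENV to 439, 556, 602 and 544 CPM against 967, 1021, 1044 and 839 CPM with buffer (log2 change -0.84 ± 0.14, adjusted p = 0.00601). With LPS it had 459, 534, 607 and 588 CPM against 749.7, 757, 1124 and 879 CPM with H2O, also without overlap (log2 change -0.66 ± 0.17, adjusted p = 0.0683, and 0.0088 with the replicate block). Timp2 had no row in the microglial table.

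Timp4 fell with ENV to 1.52, 1.45, 2.11 and 1.81 CPM against 3.93, 2.62, 3.33 and 4.36 CPM with buffer (log2 change -1.02 ± 0.23, adjusted p = 0.0185), without overlap, and the call was lost without ENV replicate 1 or buffer replicate 1 (adjusted p up to 0.0549). With LPS Timp4 had 0.837 to 1.98 CPM against 2.49 to 5.22 CPM with H2O, likewise without overlap (log2 change -1.18 ± 0.36, adjusted p = 0.104). Timp1, the inducible soluble TIMP, went the other way. ENV astrocytes had 256, 219, 289 and 268 CPM of Timp1 against 150.1, 186, 202 and 139 CPM in buffer astrocytes, without overlap (log2 change 0.61 ± 0.16, adjusted p = 0.029), and this call did not hold without ENV replicate 1, 3 or 4 or buffer replicate 1 (adjusted p up to 0.0812). LPS astrocytes had 182, 213, 303 and 248 CPM against 139.6, 176, 192 and 144 CPM in H2O astrocytes, with LPS replicate 1 inside the H2O range (log2 change 0.56 ± 0.20, adjusted p = 0.152, and 0.0315 with the replicate block).

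**Figure D3:**
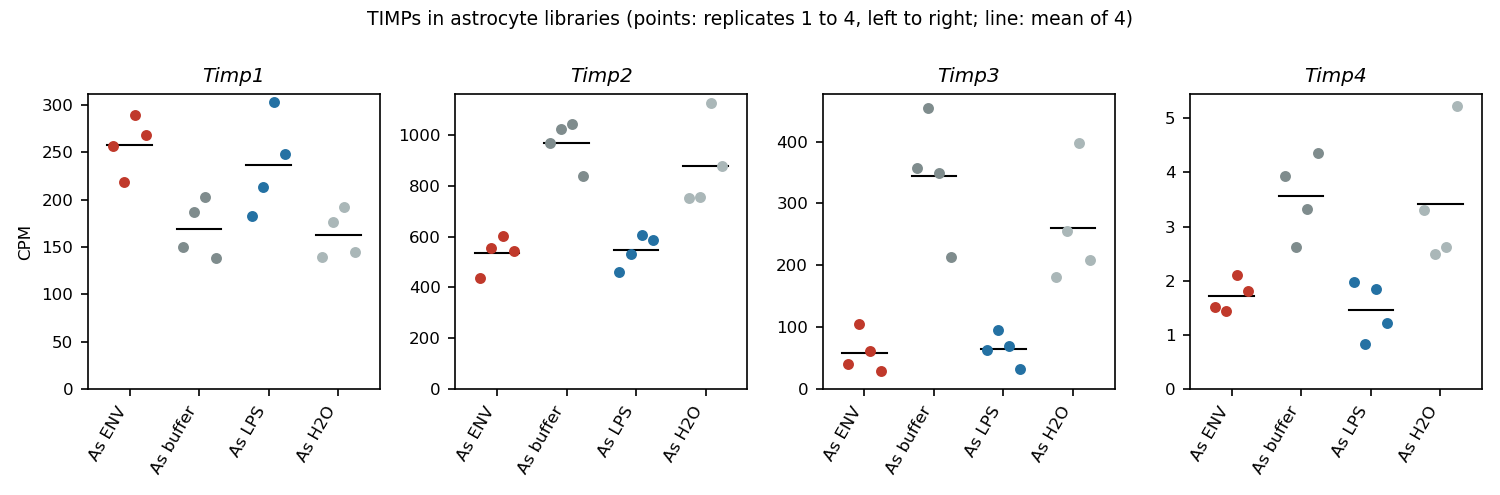
CPM (linear axis from 0) of the 4 Timp genes in each astrocyte library, replicates 1 to 4 from left to right within a group, with the group mean as a line. Timp2, Timp3 and Timp4 lie lower in all ENV and LPS libraries than in any buffer or H2O library of the same set, while Timp1 lies higher in ENV libraries than in buffer libraries.

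Markers of fibroblasts and mural cells were lower on average in treated than in vehicle astrocyte cultures, as were Timp2, Timp3 and Timp4 but not Timp1. The summed level of these markers was 1920 to 3585 CPM with ENV against 2940 to 11231 CPM with buffer. With LPS it was 2080 to 3757 CPM against 3094 to 10487 CPM with H2O. The marker sums overlapped in both pairs, and all 15 markers were above 0 in each group. Of the markers tested, 2 of 13 were called lower with ENV and 0 of 12 with LPS (edgeR). By library the ENV astrocytes had 2145, 3585, 3415 and 1920 CPM of these markers against 8274, 11231, 10777 and 2940 CPM in buffer astrocytes. In number 4 the marker sum was 1920 CPM with ENV against 2940 CPM with buffer, and Timp3 was 29.1 CPM with ENV against 214 CPM with buffer. The part of these cells in the fall of Timp3, Timp2 and Mmp11 was not tested, and in bulk RNA fewer cells of a type and less RNA per cell cannot be told apart. The 13 astrocyte markers were also lower, at 4625 to 8356 CPM with ENV against 8942 to 11662 CPM with buffer, without overlap, and overlapped at 2618 to 8334 CPM with LPS against 5712 to 11643 CPM with H2O. In microglia, Timp1 had 24.2, 22.2 and 21.1 CPM with ENV against 33.6, 25.2 and 27.4 CPM with buffer and 37.0, 19.2 and 21.8 CPM with LPS against 55.0, 32.7 and 33.4 CPM with H2O (log2 changes -0.15 ± 0.16 and -0.32 ± 0.35, adjusted p = 0.495 and 0.521). Timp3 in microglia was 0.660 to 1.27 CPM with ENV against 0.539 to 0.868 CPM with buffer (log2 change 0.44 ± 0.38, adjusted p = 0.405), and Timp4 was 0.938 to 2.61 CPM with ENV against 3.12 to 5.09 CPM with buffer (log2 change -0.85 ± 0.40, adjusted p = 0.148, and 0.0496 with the replicate block).

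Whether ENV and LPS acted differently was tested as the difference of the responses. In microglia 0 of 44 members tested were called (0% of all genes; 937 of 13270 genes at an unadjusted p under 0.05), and in astrocytes 0 of 52 (0% of all genes; 76 of 15496 genes at an unadjusted p under 0.05). Adamts4 in microglia, at -4.14 on the log2 scale, had an adjusted p of 0.538, and 0.0355 with the replicate block, where it was the 1 member called. In astrocytes the 76 genes are fewer than the 1 in 20 that chance alone would give, and that fit had no block for cultures shared by the sets. With a block shared by both sets, 242 of 15496 genes had an unadjusted p under 0.05 (edgeR) and 0 of 52 members were called. A missed threshold in these comparisons does not show that the agents acted alike.

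The ENV response of microglia minus that of astrocytes was called for 12 of 50 members (24%, against 14.9% of all genes). Of these, 8 were higher in microglia (6.87% of all genes) and 4 lower (8.07% of all genes). Adamts3 differed by 4.68 ± 0.76 (adjusted p = 0.00165), Mmp14 by 3.86 ± 0.42 (adjusted p = 0.000116), Timp3 by 2.98 ± 0.67 (adjusted p = 0.0104), Adamtsl4 by 2.66 ± 0.40 (adjusted p = 0.00103) and Adamts1 by 2.25 ± 0.60 (adjusted p = 0.0254) on the log2 scale. Lower in microglia were Adamts10 at -2.18 ± 0.29 (adjusted p = 0.000503), Mmp17 at -1.57 ± 0.46 (adjusted p = 0.0363), Adamtsl5 at -1.43 ± 0.27 (adjusted p = 0.00395) and Timp1 at -0.78 ± 0.23 (adjusted p = 0.0418). The calls on Adamts3, Mmp14, Timp3, Adamtsl4, Adamts10 and Adamtsl5 held under all 17 alternatives. Adamts1 lost its call without microglial ENV replicate 3 or any microglial buffer library, and Timp1 and Mmp17 kept theirs under 5 of 17 alternatives each. The members called lower in this term were 7 without astrocyte ENV replicate 2, and 2 without microglial ENV replicate 1 or 3, microglial buffer replicate 1, astrocyte ENV replicate 1, 3 or 4, or astrocyte buffer replicate 1 or 2. With the replicate block Adam17, Adam9, Mmp12, Mmp24 and Mmp25 were called too (adjusted p = 0.00059 to 0.0472). Timp3 stood at 0.737 ± 0.17 CPM (SD, n = 3) in buffer microglia, against 344 ± 99 CPM (n = 4) in buffer astrocytes, so the term sets a gene near its floor against an abundant one.

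The LPS response of microglia minus that of astrocytes was called for 5 of 51 members (9.80%, against 12.5% of all genes), 3 of them higher in microglia (5.32% of all genes) and 2 lower (7.14% of all genes). The median over all genes was -0.12. Adamts4 differed by 5.26 ± 1.08 (adjusted p = 0.00927), Mmp14 by 3.96 ± 0.63 (adjusted p = 0.00224) and Adamts3 by 3.20 ± 0.75 (adjusted p = 0.0175). Adamts10 differed by -2.87 ± 0.58 (adjusted p = 0.0082) and Mmp17 by -2.36 ± 0.71 (adjusted p = 0.0498). The calls on Adamts4, Mmp14 and Adamts10 held under all 18 alternatives, that on Adamts3 under 17 (adjusted p = 0.0618 without microglial replicates 3) and that on Mmp17 under 3. The members called lower were 1 without microglial LPS replicate 1 or 2, microglial H2O replicate 1, or any 1 of the 8 astrocyte libraries, and 3 without microglial LPS replicate 3. With the replicate number as a block 14 members were called, 7 in each direction, adding Adam15, Adamtsl5, Mmp12, Mmp15, Mmp16, Mmp24, Mmp25, Timp1 and Timp3 (adjusted p = 0.00342 to 0.035). Mmp3, Mmp9 and Mmp13 were not called in either term. The Mmp9 response in microglia minus that in astrocytes was -2.18 ± 0.91 with ENV (adjusted p = 0.127) and -3.58 ± 1.36 with LPS (adjusted p = 0.108).

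**Figure D4:**
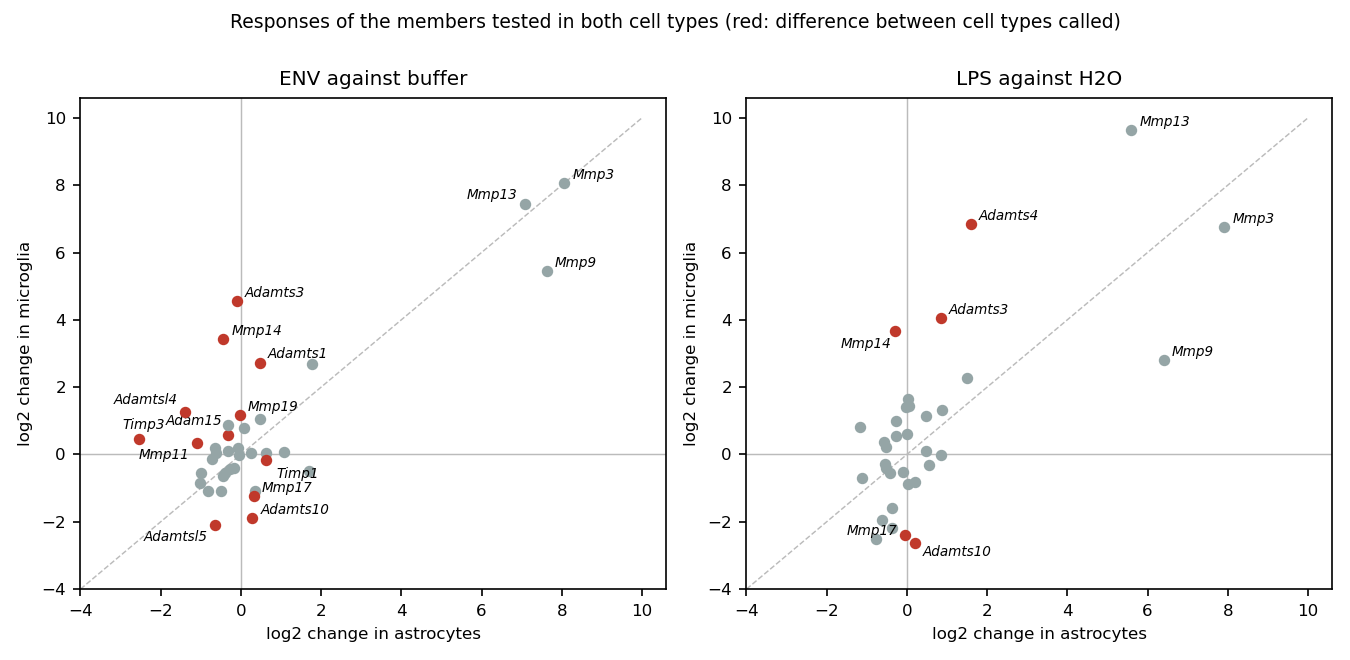
Log2 change in microglia (vertical) against that in astrocytes (horizontal) for members tested in both cell types, with ENV against buffer left and LPS against H2O right, the dashed line marking equal change and red marking a called difference between the cell types. Mmp3, Mmp9 and Mmp13 lie far out on both axes, whereas Mmp14 and Adamts3 lie high on the microglial axis only.

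The vehicle cultures differed in most members, as in most genes. In buffer 38 of 47 were called (80.9%, against 70% of all genes): 9 were higher in microglia (33.6% of all genes) and 29 lower (36.4% of all genes). In H2O 36 of 47 were called (76.6%, against 70.9% of all genes): 7 were higher (33.2% of all genes) and 29 lower (37.7% of all genes). The CPM groups did not overlap for 72.8% of all genes in buffer and 76.1% in H2O. The cell type cannot be told apart here from the days in culture, the gene table and the counting run. Microglia held more Mmp12, with 176 counts over 3 buffer libraries against 3 over 4 astrocyte buffer libraries, a ratio of 81.8 (exact 95% counting interval 27.5 to 400, adjusted p = 0.000565). In H2O the Mmp12 counts were 644 against 1, a ratio of 545 (interval 97.5 to 21569, adjusted p = 0.00112). Mmp9 averaged 13.4 ± 7.7 CPM in buffer microglia and 1.05 ± 0.26 CPM in buffer astrocytes (SD, n = 3 and 4; log2 change 4.03, adjusted p = 5.86e-05). Adam17 averaged 225 ± 45 CPM in buffer microglia and 90.7 ± 13 CPM in buffer astrocytes (log2 change 1.68, adjusted p = 2.79e-05), and Adam33, Adam9 and Adam15 were also higher in microglia with both vehicles. Adamts20 and Adam11 were higher in buffer microglia (log2 changes 2.82 and 2.29, adjusted p = 0.000647 and 0.000122) and not called in H2O. The 11 oligodendrocyte-lineage markers summed to 225 to 249 CPM in buffer microglia and 127 to 279 CPM in buffer astrocytes. In H2O they summed to 15.7 to 131 CPM in microglia and 126 to 269 CPM in astrocytes. The part of these cells in the Adamts20 and Adam11 results was not tested.

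Astrocyte cultures held more of most ADAMTS and ADAMTS-like genes and of Timp1 and Timp3. They also held more of the 15 fibroblast and mural cell markers, which averaged 8306 CPM in buffer astrocytes and 112 CPM in buffer microglia. In H2O these markers averaged 5858 CPM in astrocytes and 28.8 CPM in microglia. The part of fibroblasts and mural cells in the differences below was not tested. Timp3 averaged 0.737 ± 0.17 CPM in buffer microglia and 344 ± 99 CPM in buffer astrocytes (log2 change -8.51 ± 0.41, adjusted p = 1.55e-06), and Mmp11 0.582 ± 0.21 and 79.1 ± 11 CPM (log2 change -6.69 ± 0.26, adjusted p = 6.85e-07). Adamts5 averaged 0.0705 ± 0.033 CPM in buffer microglia and 27.8 ± 6.2 CPM in buffer astrocytes (log2 change -8.18 ± 0.41, adjusted p = 1.93e-06), and Adamtsl3 1.01 ± 0.59 and 155 ± 63 CPM (log2 change -6.92 ± 0.58, adjusted p = 2.27e-05). Mmp23 had 2 counts in buffer microglia and 820 in buffer astrocytes, a ratio of 294.1 in favour of astrocytes (interval 81.1 to 2432, adjusted p = 1.14e-05). In H2O the log2 changes were, for Timp3, -9.78 ± 1.06 (adjusted p = 0.000176) and, for Adamtsl3, -8.69 ± 0.88 (adjusted p = 0.000129). Adamts5 there had 3 counts in microglia and 2475 in astrocytes (974-fold in favour of astrocytes, interval 333 to 4728). Adamts2 and Adamtsl2 had 0 counts in the 3 H2O microglial libraries and were at least 132-fold and 70.5-fold lower there, against a floor of 3 pooled counts. Mmp14 averaged 6.21 ± 3.3 CPM in buffer microglia and 291 ± 35 CPM in buffer astrocytes, and ENV microglia, at 57.5 ± 7.5 CPM, remained below every astrocyte library.

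**Figure D5:**
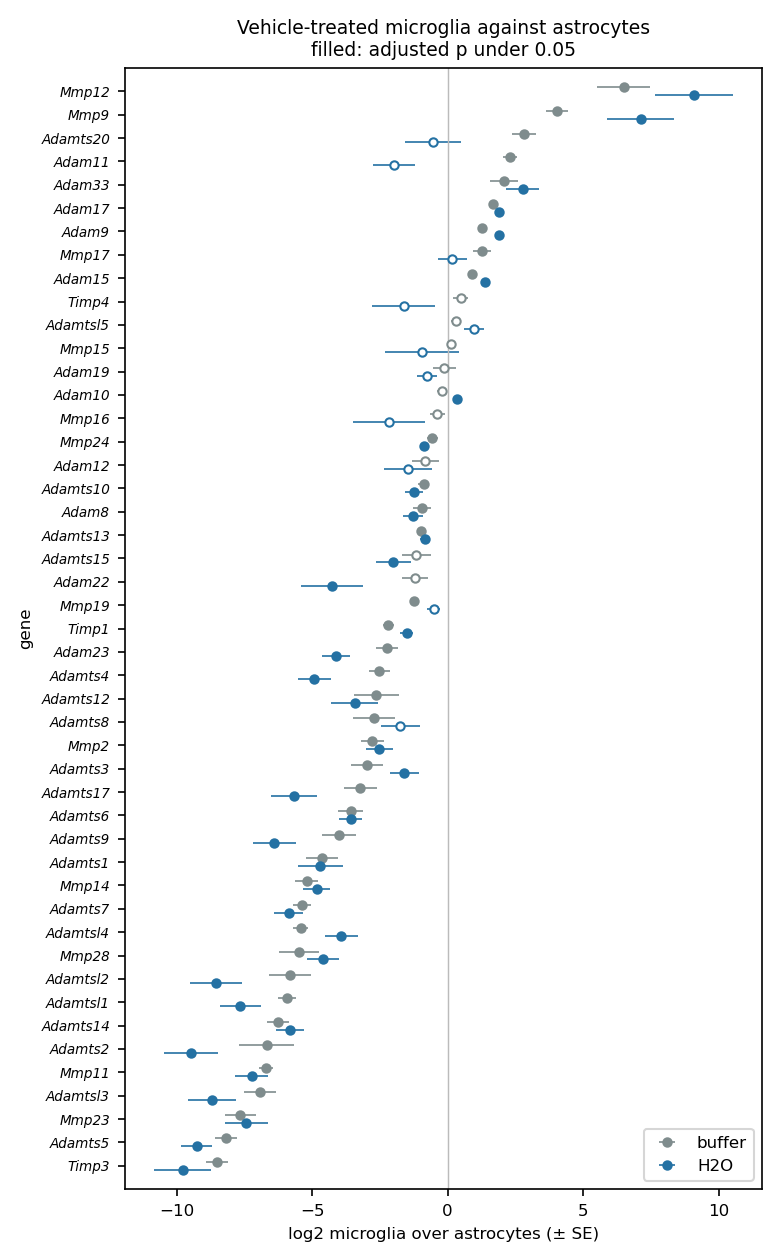
Log2 ratio of microglia over astrocytes (± SE) for each member tested, in buffer (grey) and H2O (blue), filled where the adjusted p was under 0.05. Most points lie left of 0, with Timp3, Adamts5 and Mmp23 at the bottom and Mmp12 and Mmp9 at the top.

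Genes that act with these families were counted from 7 lists. The percentages of all genes called, given above, stand beside these counts too. Of 11 tested genes of plasminogen activation, which turns on several MMP precursors, ENV microglia had 1 higher and 4 lower. Plau, the urokinase gene, fell to 43.9 ± 7.9 CPM in ENV microglia against 641 ± 169 CPM in buffer microglia (SD, n = 3 each; log2 change -3.67, adjusted p = 0.000209) and to 25.7 ± 15 CPM in LPS microglia against 457 ± 84 CPM in H2O microglia (log2 change -3.84, adjusted p = 0.00627). In ENV astrocytes 2 of 11 were higher and 1 lower. There Plat, the tissue activator, rose to 200.2 ± 34 CPM with ENV against 142 ± 16 CPM with buffer (SD, n = 4 each; log2 change 0.51, adjusted p = 0.03). The transmembrane serine protease gene Tmprss2 was the 1 gene of the activator list called higher in all 4 comparisons, with log2 changes of 7.28 in LPS microglia, 3.63 in ENV astrocytes and 2.82 in LPS astrocytes, and with 290 counts in ENV microglia against 3 in buffer microglia.

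Of the partners of ADAM10 and ADAM17, 4 of 12 rose and 3 fell in ENV microglia and 4 of 10 rose and 2 fell in LPS microglia. The tetraspanin Tspan10 fell to 0.292 ± 0.12 CPM with ENV against 21.1 ± 7.2 CPM with buffer (log2 change -5.95, adjusted p = 0.000239), and the integrin subunit Itga5 rose to 219 ± 26 CPM with ENV against 65.3 ± 13 CPM with buffer (log2 change 1.95, adjusted p = 0.000403). In astrocytes Tspan15 and Tspan17, tetraspanins that bind ADAM10, fell with ENV (log2 changes -1.24 and -1.13, adjusted p = 0.00607 and 0.00773) and with LPS (-1.11 and -0.96, adjusted p = 0.0114 and 0.0186), and Rhbdf2, which carries ADAM17 to the cell surface, rose with ENV (log2 change 1.38, adjusted p = 0.0436). Of their shed substrates, 9 of 25 rose and 4 fell in ENV microglia, 11 of 25 rose and 3 fell in LPS microglia, 9 of 28 rose and 2 fell in ENV astrocytes, and 6 of 28 rose and 1 fell in LPS astrocytes. Trem2, a lipid receptor of microglia, fell to 93.8 ± 6.5 CPM in ENV microglia against 754 ± 69 CPM in buffer microglia (log2 change -2.81, adjusted p = 0.00012), and Cxcl16, a membrane-bound chemokine, rose to 761 ± 180 CPM in ENV astrocytes against 61.9 ± 27 CPM in buffer astrocytes (log2 change 3.65, adjusted p = 0.000508).

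Of the lectican matrix genes tested, 1 of 10 fell in ENV microglia, 2 of 9 in ENV astrocytes and 1 of 9 in LPS astrocytes. Bcan, the gene of brevican, a brain proteoglycan that ADAMTS4 cuts, fell to 84.7 ± 14 CPM in ENV astrocytes against 253 ± 27 CPM in buffer astrocytes (n = 4 each; log2 change -1.57, adjusted p = 0.000564), and to 84.3 ± 14 CPM in LPS astrocytes against 211 ± 39 CPM in H2O astrocytes (log2 change -1.30, adjusted p = 0.00862). Of the other inhibitors and inducers, 3 of 7 fell in ENV astrocytes. A2m, a broad protease inhibitor of plasma, fell there to 444 ± 91 CPM against 1029 ± 293 CPM with buffer (log2 change -1.19, adjusted p = 0.00832). In microglia Bsg, the gene of the MMP inducer CD147, rose with ENV and LPS (log2 changes 0.55 and 1.03, adjusted p = 0.0452 and 0.0162). Among related metalloproteases outside the families, the endothelin-converting enzyme gene Ece1 rose in microglia with both agents (log2 changes 1.51 and 1.40, adjusted p = 0.000291 and 0.00706), and Tll2 fell in astrocytes with both (-4.21 and -2.90, adjusted p = 0.00364 and 0.0239).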

How the data were processed

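The libraries were made by mRNA capture from 150 ng of total RNA, per the labels' protocols. The deposited tables hold raw read counts per gene symbol, made by the authors, and the submitters' processing notes name HISAT2, StringTie 1.3.3b and the build mRatBN7.2; the strand setting of the counting and the counting of reads shared by similar genes are not stated in the labels or notes. Counts per 1000000 (CPM) were computed from library totals. Each comparison was fitted over all genes of its groups alone with edgeR 4.0.16 in R 4.3.3 (TMM scaling, filterByExpr, robust quasi-likelihood F test, Benjamini-Hochberg adjustment over all genes tested). Calls are adjusted p-values under 0.05. Differences between responses were fitted as interaction terms over the 4 groups concerned, and comparisons of cell types used the symbols that the tables share. The scripts were tested on simulated data with 200 changed genes.

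The members and the lists were chosen with earlier results of these data known. Any member could be named with its level. Full values were given, in each treated comparison, for the 5 largest called rises and the 5 largest called falls that averaged 1 CPM or more in whichever group was higher, and for a panel of 16 members whatever their result. For the differences between responses and for the vehicle cultures they were given for the 5 largest called differences in each direction, and for related lists for up to 3 called genes. A gene of a related list is not reported here. A few further called members were named after their values were seen, as were Adamts18, Mmp10, Mmp15 and Mmp16 in LPS microglia, and Adamts17. So were the members named because the replicate block or DESeq2 called them and the main fit did not. Ratios of pooled counts with exact 95% counting intervals replace fitted changes where a group held 3 counts or fewer.

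The labels give treated and vehicle libraries the same replicate numbers. Deviations from the group means, correlated over genes between same-numbered libraries, ranged between 0.2812 and 0.6884 over the 14 pairs, all above 0.1. However, LPS replicate 2 of astrocytes correlated better with H2O replicate 1 (0.6243) than with H2O replicate 2 (0.5926). The numbers are therefore taken as likely pairs only. The main fits carry no block, and a fit with the number as a block is given where it changes a call. The alternatives were DESeq2 (1.42.0) and its size factors, no filter on low counts, the block, all 4 groups of a cell type in 1 fit, replicates 1 and 2 or 3 and 4 alone, and each library left out in turn. For astrocytes, ENV against LPS was also fitted with a block shared by both sets and from replicates 1 and 2 alone, alternatives chosen after seeing the data.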

Additional observations from a re-analysis of the deposited data

Results flagged for a closer look

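Among 184 groups of 4 astrocyte values examined, 9 held a library far from the other 3; chance alone marks about 1 in 20 such groups. Of these, 5 fell on replicate 3 of the H2O group: Adamts14 was lowest there, at 8.82 CPM, and Adamts15 (4.49 CPM), Adamts2 (5.72 CPM), Adamts5 (34.8 CPM) and Adamts8 (3.54 CPM) were highest there. In LPS astrocytes, replicate 3 was far above the others for Adamts2, at 2.61 CPM. In ENV astrocytes, replicate 2 was far above the others for Mmp11, at 54.2 CPM, still below every buffer library. In buffer astrocytes, replicate 4 was highest for Adamts1 (62.1 CPM) and replicate 3 for Adamtsl5 (24.4 CPM).

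The ENV response of microglia minus that of astrocytes, tested as an interaction, differed for Adamts3 (4.68 on the log2 scale), Mmp14 (3.86), Timp3 (2.98), Adamtsl4 (2.66), Adamts1 (2.25), Mmp11 (1.45), Mmp19 (1.20), Adam15 (0.89), Timp1 (-0.78), Adamtsl5 (-1.43), Mmp17 (-1.57) and Adamts10 (-2.18). The LPS response differed for Adamts4 (5.26), Mmp14 (3.96), Adamts3 (3.20), Mmp17 (-2.36) and Adamts10 (-2.87). Cell type, days in culture, gene table and counting run cannot be told apart in these terms.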

How the results depend on the processing

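For the members named by the rule there were 75 called results and 985 alternative fits of them: 849 kept the call in the same direction, 136 kept the direction without the call, and 0 turned it. The counts of calls moved more. With LPS in microglia, where 3 members were called lower, DESeq2 gave 6, the replicate block 6 and all 4 groups in 1 fit 7. With ENV in astrocytes (8 higher and 11 lower), replicates 1 and 2 alone gave 2 higher and 1 lower, and replicates 3 and 4 alone 3 lower. With LPS in astrocytes (3 higher), DESeq2 gave 7, the block 5, all 4 groups 6, replicates 1 and 2 alone 5 and replicates 3 and 4 alone 7, and for the members called lower (4) these were 11, 13, 10, 14 and 2. ENV minus LPS in microglia had 1 lower under the block, against 0. The LPS response of microglia minus that of astrocytes (3 higher, 2 lower) gave 7 and 7 under the block, 1 lower with DESeq2's size factors, 1 lower without the filter and 4 lower without microglial replicates 3. The block with its pairing by replicate number changed no other count by over 1.5 times. The cause of these shifts was not tested.

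Leaving out 1 library at a time gave 8 to 11 higher and 2 to 7 lower for ENV in microglia, 3 to 7 and 1 to 4 for LPS in microglia, 5 to 10 and 6 to 12 for ENV in astrocytes, and 3 to 4 and 1 to 3 for LPS in astrocytes. It gave 6 to 10 and 2 to 7 for the ENV response between cell types, 3 and 1 to 3 for the LPS response, 9 to 10 and 27 to 29 for the buffer cultures, 6 to 7 and 27 to 33 for the H2O cultures, and 0 for ENV minus LPS in either cell type.

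No called change of a treated group against its vehicle turned sign. Among the uncalled members of the panel, those that did were as follows. In ENV microglia they were Adam10 (-0.19 from replicates 1 and 2, -0.10 to 0.26 without single libraries), Adam17 (-0.13 and -0.09 to 0.14), Adam8 (-0.16 to 0.48), Adamts9 (0.18 under the block, -0.55 to 1.04) and Mmp2 (-0.02 to 0.25). In LPS microglia they were Adamts1 (-0.92 from replicates 1 and 2, -2.35 to 2.75), Adamts9 (-2.83 to 2.89) and Mmp2 (0.00 with DESeq2 and with its size factors, 0.23 from replicates 1 and 2, -0.38 to 0.22). In ENV astrocytes they were Adam8 (0.27 from replicates 1 and 2, -0.27 to 0.11), Adamts1 (-0.08 from replicates 3 and 4) and Adamts5 (-0.77 from replicates 1 and 2). In LPS astrocytes they were Adam8 (0.22) and Adamts5 (-0.78) from replicates 1 and 2, Adamts9 (-0.43 under the block, -1.27 from replicates 3 and 4, -0.50 to 0.35) and Mmp2 (-0.70 from replicates 1 and 2, -0.29 to 1.32). Of the other members in LPS microglia, Mmp15 (2.07) and Mmp16 (2.04) turned without H2O replicate 3, Mmp11 (-2.06) without LPS replicate 3, and Adamtsl3 without LPS replicate 3 (-1.65), without H2O replicate 1 (-0.01) and under the block (-0.13). Further uncalled members turned in ENV microglia (Adam9, Adam19 and Adam23), ENV astrocytes (Adam12, Adam19, Adamts3, Adamts6, Adamts8, Adamts10, Adamts12, Adamts20, Adamtsl2, Mmp19 and Mmp23) and LPS astrocytes (Adam11, Adam12, Adam19, Adamts8, Adamts10, Adamts12 to Adamts15, Mmp17, Mmp19 and Mmp28). Depth limits the ratios of Mmp3 and Mmp13, and of Mmp12 in astrocytes, since their vehicle groups held a few counts or none.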

Other observations

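Mmp7, the last gene of the run on chromosome 8, stayed under 1 CPM on average in every group and below the low-count filter of the 4 treated comparisons. It had 72 counts over the 4 ENV astrocyte libraries against 15 in buffer astrocytes, 58 of them in ENV replicate 4 (1.98 CPM) and 14 of the buffer counts in buffer replicate 4, and 55 counts over the LPS astrocyte libraries against 7 in H2O astrocytes, again most in replicate 4 of each group. In microglia it had 19 counts with ENV against 3 with buffer, a ratio of 6.05 (exact 95% counting interval 1.78 to 31.9), and 51 counts with LPS against 8 with H2O. Without the filter the edgeR log2 changes of Mmp7 were 2.66 in ENV microglia (adjusted p = 0.0632), 2.96 in LPS microglia (adjusted p = 0.265), 2.37 in ENV astrocytes (adjusted p = 0.315) and 2.93 in LPS astrocytes (adjusted p = 0.403), and none was called.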
